A study of Mus musculus with 8 samples.

Results

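A total of 353 chromatin loops of mouse embryonic stem (ES) cells joined anchors that lay in different topologically associating domains (TADs). They were taken from the 8459 loops listed for ES cells: the loop was at most 3 Mb long, the midpoint of each anchor lay inside a TAD of the ES cell list, and no single TAD held both midpoints. Among the 8144 ES cell loops of at most 3 Mb they made up 4.33%, beside 2617 loops held by 1 TAD, 2043 with only 1 anchor in a TAD and 3131 with neither anchor in a TAD. The loops were chosen by measured values, namely the ES cell loop and TAD calls themselves, so the size, TAD positions and ES cell strength given here describe the loops and were not tested.

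The study compared Hi-C maps of wild-type v6.5 ES cells, grown without feeders on 0.2% gelatin with LIF at 24 ng/mL, with lens epithelium and lens fiber cells microdissected from newborn CD-1 mice (P0.5; 30 lenses pooled per replicate). All were fixed in 2.0% formaldehyde, and the 2 replicates of each cell type were merged before calling, leaving 1 loop list and 1 TAD list per cell type. CTCF ChIP-seq peaks came from lens epithelium and lens fibers of 200 pooled newborn lenses, with 1 sample each; CTCF peaks of ES cells were not used here. Because each list is a single merged call, no test between cell types was possible: intervals given below are 95% Wilson (shares) or Newcombe (differences) intervals over loops that cover counting error only, and loops that share anchors are not independent. ES cells and lens also differ in mouse strain and in tissue handling, which cannot be told apart from cell type here. The paper gives the ES cells as male and of mixed strain background, and states no sex for the newborn mice. The files hold no expression values, so the identity of the cells could not be checked against marker genes.

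A TAD is a stretch of chromosome whose sequences contact each other more often than they contact their neighbours. Most loops are thought to form when cohesin extrudes chromatin until it meets CTCF bound in convergent orientation, and such loops commonly sit at the corners of a TAD. A smaller class of long contacts in ES cells links CpG-rich promoters of silenced developmental regulators that are held by Polycomb complexes, and these contacts can pass over many TADs. No Polycomb or histone data were used here, so the loops below are described by position, genes and lens CTCF alone.

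The promoters of 6 developmental genes at named loops over TADs are shown as examples of what was joined. Lhx1 and Tbx4 lay at the ends of 1 loop, Sp9 and Hoxd10 at the ends of another, and Emx1 and Emx2 each closed a triangle of 3 loops. Each sequence is the RefSeq GRCm38.p6 stretch from 250 bases before to 50 bases after the transcription start, 5′ to 3′ on the strand of the gene, with every CG dinucleotide (CpG, which reads the same on both strands) in capitals. Lhx1 lies at chr11:84525485-84525784 on the minus strand, Tbx4 at chr11:85896515-85896814 on the plus strand, Sp9 at chr2:73271676-73271975 (plus), Hoxd10 at chr2:74691641-74691940 (plus), Emx1 at chr6:85187681-85187980 (plus) and Emx2 at chr19:59458440-59458739 (plus).
Lhx1: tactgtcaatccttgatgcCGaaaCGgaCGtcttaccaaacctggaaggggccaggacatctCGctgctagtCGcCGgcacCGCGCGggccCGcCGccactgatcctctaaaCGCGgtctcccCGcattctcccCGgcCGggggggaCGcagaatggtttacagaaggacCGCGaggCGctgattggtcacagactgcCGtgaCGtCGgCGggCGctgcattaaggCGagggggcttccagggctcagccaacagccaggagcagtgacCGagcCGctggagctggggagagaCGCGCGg
Tbx4: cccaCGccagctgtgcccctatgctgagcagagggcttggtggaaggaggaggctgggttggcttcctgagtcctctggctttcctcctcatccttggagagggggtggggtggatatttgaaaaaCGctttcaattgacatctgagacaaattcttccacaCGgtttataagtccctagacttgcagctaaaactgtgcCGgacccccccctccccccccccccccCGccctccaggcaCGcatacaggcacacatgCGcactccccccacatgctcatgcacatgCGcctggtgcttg
Sp9: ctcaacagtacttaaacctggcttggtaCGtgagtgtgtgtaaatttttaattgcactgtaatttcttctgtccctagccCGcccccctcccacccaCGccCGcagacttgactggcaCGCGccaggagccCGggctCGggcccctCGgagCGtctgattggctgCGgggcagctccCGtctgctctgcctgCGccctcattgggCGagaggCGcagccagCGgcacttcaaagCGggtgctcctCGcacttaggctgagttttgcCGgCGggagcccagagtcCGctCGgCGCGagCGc
Hoxd10: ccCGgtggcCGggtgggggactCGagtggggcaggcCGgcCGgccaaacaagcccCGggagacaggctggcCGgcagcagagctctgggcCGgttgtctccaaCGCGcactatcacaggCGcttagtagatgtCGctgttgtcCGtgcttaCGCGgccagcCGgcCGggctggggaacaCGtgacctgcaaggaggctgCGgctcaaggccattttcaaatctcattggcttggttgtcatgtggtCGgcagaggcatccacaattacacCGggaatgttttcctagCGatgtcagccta
Emx1: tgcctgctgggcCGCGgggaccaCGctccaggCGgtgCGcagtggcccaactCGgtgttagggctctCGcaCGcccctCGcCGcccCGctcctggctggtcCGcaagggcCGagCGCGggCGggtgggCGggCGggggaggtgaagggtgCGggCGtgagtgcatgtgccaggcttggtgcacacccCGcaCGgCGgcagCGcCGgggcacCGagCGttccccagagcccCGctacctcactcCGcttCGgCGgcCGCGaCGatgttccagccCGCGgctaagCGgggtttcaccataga
Emx2: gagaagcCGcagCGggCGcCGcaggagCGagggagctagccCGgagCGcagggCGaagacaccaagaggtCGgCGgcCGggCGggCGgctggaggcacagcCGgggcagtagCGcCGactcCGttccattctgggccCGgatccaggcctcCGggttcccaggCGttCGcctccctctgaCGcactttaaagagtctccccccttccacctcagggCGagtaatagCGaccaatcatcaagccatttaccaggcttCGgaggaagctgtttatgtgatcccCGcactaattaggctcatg
The Lhx1 window held 31 CpG, Tbx4 8, Sp9 25, Hoxd10 22, Emx1 37 and Emx2 26. Of the 17492 protein-coding genes with a listed start, 13.4% had at least as many CpG as Lhx1, 61.7% as Tbx4, 24.5% as Sp9, 31.3% as Hoxd10, 6.87% as Emx1 and 22.2% as Emx2. The median of all promoters was 13 CpG, and of these 6 only Tbx4 was below it. The 6 are examples and not the whole range: among the other promoters read, Sp5 and Otx2 held 6 CpG each and Foxa2 held 12. Over the 165 genes with a listed start inside an anchor of the inter-TAD loops the median was 21 CpG, with at least 20 CpG in 53.3% (45.7 to 60.8). At anchors of loops within 1 TAD it was 18 CpG over 549 genes, with at least 20 CpG in 45.9% (41.8 to 50.1), so that part of the difference from all promoters was shared by other loop anchors. Within the inter-TAD loops, the 37 developmental genes and the 128 others both had a median of 21 CpG, with at least 20 CpG in 54.1% and 53.1%. The median was 26 over the 26 such genes at loops that passed over 2 or more TADs. The 34 genes at inter-TAD loops also found in a lens list had a median of 10.5 CpG, and the 134 at loops found in neither lens list a median of 22.5. At least 20 CpG were present in 26.5% (14.6 to 43.1) of the former and 59.0% (50.5 to 66.9) of the latter, against 36.1% of all promoters.

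Inter-TAD loops mostly bridged neighbouring TADs, with a tail of loops that passed over many. The 2 TADs were separated by a gap in 341 loops, touched in 7 and overlapped in 5, and the gap had a median of 45 kb and a maximum of 2745 kb. No other TAD lay wholly between the anchors of 232 loops, 1 lay between those of 70 loops, 2 in 22 loops, 3 in 9 loops and 4 to 11 in the remaining loops. Thus 121 loops (34.3%, 29.5 to 39.4) passed over at least 1 whole TAD, which was so for 18.2% of all ES cell loops of this size range, a count that the rule itself favours. Here and below, counts of TADs passed over take every listed TAD, including those nested in another TAD or in that of an anchor. They are therefore not counts of separate domains. With outermost TADs only, a whole TAD lay between the anchors of 28.6% of the inter-TAD loops. The anchor TADs had a median size of 155 kb, close to the 145 kb of all 3604 ES cell TADs, and in 318 loops (90.1%) at least 1 of the 2 was under 200 kb. The count of loops depends on these small TADs, since only 35 loops met the rule with TADs of at least 200 kb. In 157 loops (44.5%) an anchor midpoint lay within 5 kb of the edge of its TAD.

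Both anchors lay within 25 kb of a TAD border in 200 loops (56.7%, 51.4 to 61.7), 1 anchor in 112 and neither in 41. The same held for both anchors of 42.2% of loops within 1 TAD, 46.0% of loops with only 1 anchor in a TAD and 30.8% of all ES cell loops. Since the rule puts both anchors in TADs, and most of these TADs are small, nothing is read from the higher share. In 211 loops (59.8%) each anchor was in the part of its TAD away from the partner, so that the loop enclosed most of both TADs. In 119 loops only 1 anchor was placed that way, and in 23 loops both anchors were in the parts facing each other. The sequence between the anchors held a median of 3 protein-coding genes and at most 63.

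Inter-TAD loops were longer than loops held by 1 TAD. The median size was 375 kb (range 50 to 2870 kb, quartiles 240 and 600 kb), against 130 kb for loops within 1 TAD. At the size limit, the longest loops inside were 2870, 2650 and 2650 kb, and the shortest of the 62 inter-TAD loops left out were 3150, 3375 and 3375 kb. Observed contacts per loop ranged from 12 to 313 with a median of 55, and the ratio of observed contacts to those expected from the ring of pixels around the loop (the donut) ranged from 1.85 to 41.1 with a median of 3.09. Contacts and ratio depend on the bin, so they were also read by anchor width. The ratio had a median of 5.20 for the 85 loops with 5 kb anchors, 3.05 for the 149 with 10 kb anchors and 2.43 for the 119 with 25 kb anchors, against 3.52, 2.54 and 2.18 for loops within 1 TAD. The ratio rises with length, and among loops of like length with 10 kb anchors the medians lay closer: 2.50 against 2.30 up to 200 kb, 2.91 against 2.71 from 200 to 400 kb and 3.45 against 3.32 from 400 to 800 kb. From 400 to 800 kb the loops with 1 anchor and with no anchor in a TAD had medians of 3.59 and 3.65. From 800 to 3000 kb the median was 5.91 for the 24 inter-TAD loops and 3.59 for the 15 within 1 TAD, but 5.49 with 1 anchor and 5.17 with no anchor in a TAD. A higher ratio was thus not particular to loops between TADs. The plot of size against this ratio shows the high ratios on the right, among long loops with few contacts.

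**Figure D1:**
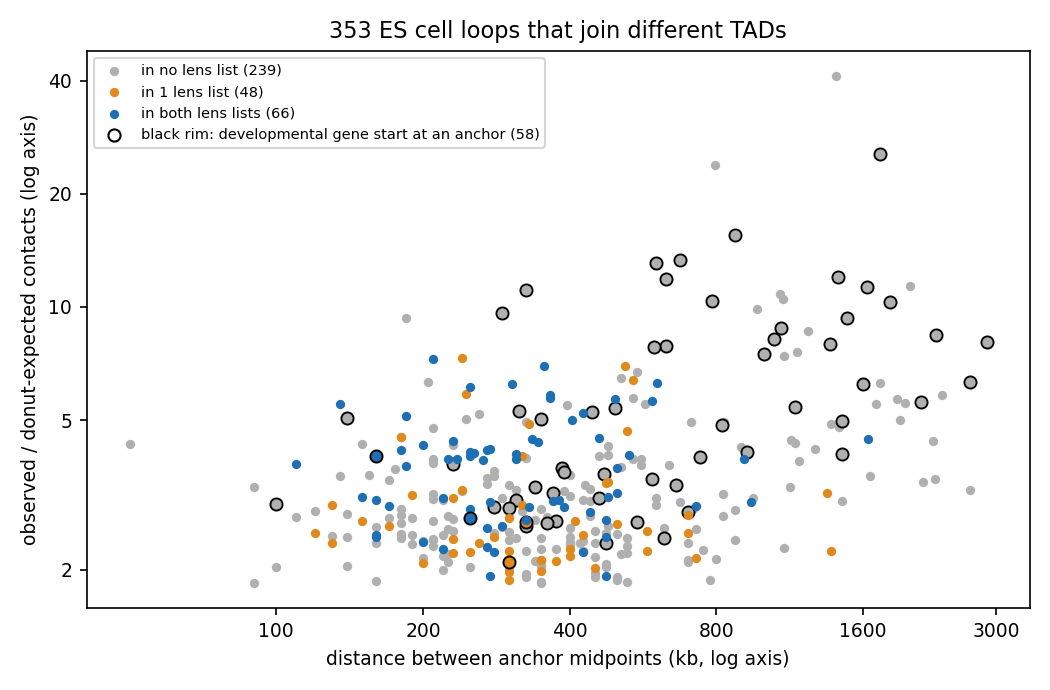
Distance between anchor midpoints (x, kb, log axis) against observed over donut-expected contacts in ES cells (y, log axis) for the 353 inter-TAD loops, 1 point per loop. Colour gives the number of lens lists that hold the loop, and a black rim marks the 58 loops with the start of a developmental gene at an anchor. Above 600 kb the rimmed points are all grey, that is, in neither lens list.

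Genes stood at both ends of these loops more often than at both ends of other ES cell loops. The start of a protein-coding gene lay in both anchors of 62 loops (17.6%, 13.9 to 21.9), in 1 anchor of 115 and in neither of 176. Both anchors held a start in 7.78% of all 8144 ES cell loops and in 3.67% of those within 1 TAD. Against loops within 1 TAD the share was 13.9 percentage points higher (10.2 to 18.3), and it was higher in each of the 4 size classes and at each anchor width. Against loops with only 1 anchor in a TAD it was 7.33 points higher (3.46 to 11.8), but from 800 to 3000 kb the shares were 26.7% and 27.4%, with a difference of -0.697 points (-12.3 to 12.9). The starts of 4395 of the 21887 coding genes are not in the table used, and either end of the gene stood in for them. With listed starts only, 10.2% of the inter-TAD loops had a start at both anchors. The other ES cell loops were not recounted in that way, so this share cannot be set against theirs. The shares with developmental genes below were not recounted with listed starts either.

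Developmental regulators were frequent among these genes. The lists of homeobox genes, other developmental transcription factors and signalling genes had, as a whole, a start at 1 or both anchors of 58 loops (16.4%, 12.9 to 20.7), against 5.48% of all ES cell loops and 3.71% of loops within 1 TAD. The difference from loops within 1 TAD was 12.7 points (9.13 to 17.0) and was positive in every size class, although up to 200 kb it was 2.34 points (-1.36 to 11.8). From 800 to 3000 kb the share rose to 33.3% (22.7 to 45.9), close to the 30.3% of loops with only 1 anchor in a TAD, a difference of 2.99 points (-9.55 to 16.9), and above the 14.3% of loops within 1 TAD. At that length the frequency of developmental genes was therefore not shown to be particular to loops between TADs. The plot of gene starts by loop size gives all 4 classes.

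**Figure D2:**
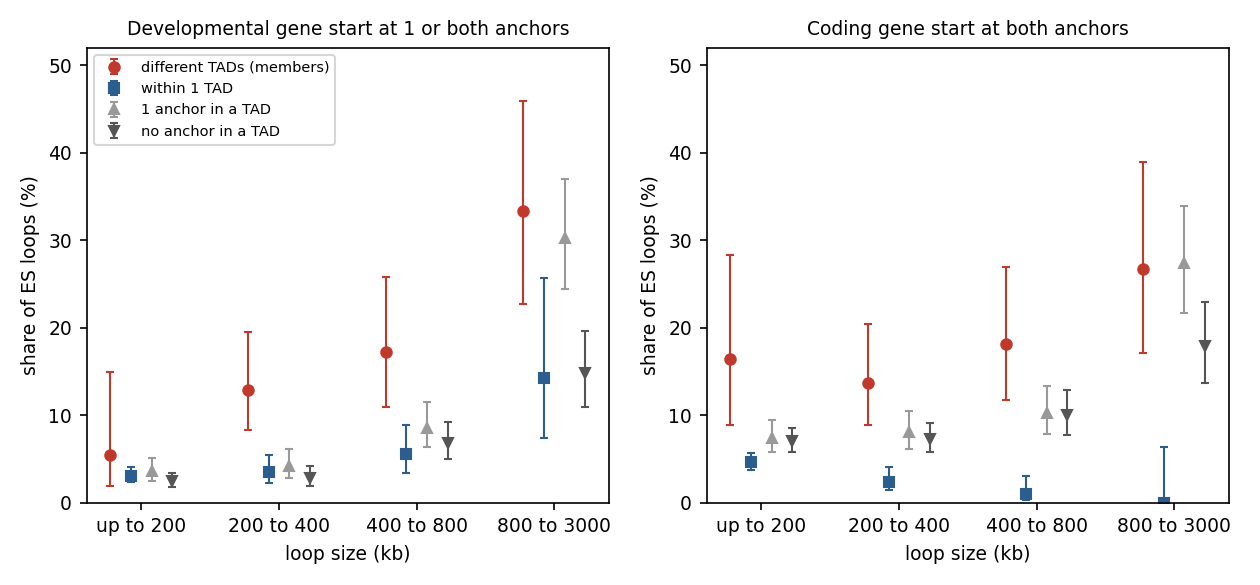
Share of ES cell loops (y, %) with a developmental gene start at 1 or both anchors (left) and with any protein-coding gene start at both anchors (right), by loop size (x, kb). Points are the 4 classes of loop position and bars are 95% Wilson intervals; the red points of the inter-TAD loops lie above the blue points of loops within 1 TAD in every size class of both panels.

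By family, homeobox genes led. Of the 172 homeobox genes, 33 (19.2%) had a start in an anchor of 34 inter-TAD loops, which is 9.63% of the inter-TAD loops against 2.27% of all ES cell loops. They included members of the Hoxa, Hoxb, Hoxc and Hoxd clusters, which set position along the body axis, Dlx1 and Dlx6 of forebrain and face, and Otx2, Lhx1, Lhx5, Emx1, Emx2, Vax1 and Vax2 of the head and eye. Of the 217 other developmental factors, 20 were at 22 loops (6.23%, background 2.33%), among them Sp5, Sp8, Sp9, Foxa2, Tbx1, Tbx4, Olig2 and Gata2. Of the 177 signalling genes, 6 were at 6 loops (1.7%, background 1.11%): Bmp1, Fgf1, Fgf9, Fgfr3, Sema5b and Wnt3a. None of the 33 genes of the pluripotency list had a start at an inter-TAD loop (0 of 353 loops, background 0.147%). Families that form gene clusters, such as keratins and zinc finger genes, had 4 of 2001 genes at 3 loops (background 1.29%). The lens list had 2 of 30 genes at 2 loops (background 0.16%): Cryba2, a lens crystallin gene, and Sox1, a factor needed for crystallin expression in fiber cells. The Cryba2 loop reached Speg over 525 kb with 147 contacts and a ratio of 1.86, and the Sox1 loop reached Col4a1 and Col4a2 over 1085 kb with 17 contacts and a ratio of 8.79. Neither was in a lens list.

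In 5 loops (1.42%, background 0.602%) a listed developmental gene stood at both ends, and none of the 5 was in a lens list. The Lhx1 anchor (chr11:84520001-84530000), a LIM homeobox gene of the head organizer and kidney, was joined to the anchor of Tbx4 (chr11:85890001-85900000), a hindlimb T-box gene, over 1370 kb with 33 contacts, 7.95 times the expected number. This loop passed over 5 TADs and 13 coding genes. The Hand1 anchor (chr11:57825001-57850000), a bHLH factor of heart and trophoblast, met that of the ligand gene Wnt3a (chr11:59275001-59300000) over 1450 kb, also across 5 TADs, with 32 contacts and a ratio of 4.07. On chromosome 2, the zinc finger gene Sp9 (chr2:73270001-73280000) met Hoxd9 and Hoxd10 (chr2:74690001-74700000) over 1420 kb with 28 contacts and a ratio of 12.0. Its relative Sp5 (chr2:70470001-70480000) met Dlx1 (chr2:71520001-71530000) over 1050 kb with 23 contacts and a ratio of 8.22. The last pair was Insm1 (chr2:146220001-146230000), a zinc finger gene of neuroendocrine cells, and Foxa2 (chr2:148040001-148050000), a forkhead gene of the endoderm and node, over 1820 kb with 18 contacts and a ratio of 10.3. All 5 were over 1 Mb long and rested on 18 to 33 contacts. From 800 to 3000 kb, 8.33% of inter-TAD loops had such genes at both ends, against 0.0% within 1 TAD. With 1 anchor and with no anchor in a TAD the shares were 5.47% and 3.04%. The differences from these were 2.86 (-3.37 to 12.9) and 5.29 points (-0.221 to 15.1). Of all inter-TAD loops of that length, 8.33% were in either lens list, so nothing is read from the absence of the 5. No listed start was available for Hand1 and Insm1, so an end of each gene was used. Of the 59 developmental genes found at anchors, 37 had a listed start.

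The 10 loops with the highest ratios were 600 to 2000 kb long, and 7 of them had a gene of the developmental lists at an end. Such a gene stood at 16.4% of all inter-TAD loops, 33.3% of those from 800 to 3000 kb and 5.48% of all ES cell loops. Ratio and share both rise with length, so no link to the ratio is read from the 7. For Vax2, Barx2 and Lbx1 no start was listed and a gene end was used. The highest ratio, 41.1, belonged to a loop of 1410 kb on chromosome 7 between the body of Nap1l4 (chr7:143540001-143545000) and a site with no coding gene (chr7:144950001-144955000), with 52 contacts where 1.27 were expected. The second, at 25.5, joined a site beside Dlx1 (chr2:71535001-71540000) to Sp9 over 1735 kb, with 15 contacts. The third, at 23.9, ended in Cacna1a (chr8:84605001-84610000), a calcium channel gene, and passed over 7 listed TADs, nested ones included, in 795 kb. The gap between its anchor TADs was 375 kb, so the 7 are not all separate domains between them. Among the others were 2 loops of Cyp26b1 described below, the Sp9 to Hoxd loop, Barx2 to Fli1 (630 kb, ratio 11.9), Prdm12 to Lmx1b (2000 kb, ratio 11.4) and a site on chromosome 19 to Lbx1 (1630 kb, ratio 11.3). At Prdm12 and Lmx1b the anchors lay in the gene bodies and not at a start. None of the 10 was in a lens list.

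The following 3 loops passed over the most TADs. Olig2, a bHLH gene of motor neurons and oligodendrocytes (chr16:91220001-91230000), was joined to the body of Sim2 (chr16:94090001-94100000) over 2870 kb and 11 TADs with 15 contacts, 8.08 times the expected number. Prdm12 to Lmx1b also passed over 11 TADs and 46 coding genes with 19 contacts. A loop from the bodies of Nup188 and Sh3glb2 to that of Nup214 crossed 10 TADs over 1650 kb with 28 contacts and a ratio of 3.56. The Olig2 loop had no lens loop end at either anchor.

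Some anchor sites took part in several inter-TAD loops. Anchors within 10 kb of each other merged into 626 sites, of which 67 had at least 2 loops and 13 had 3 loops. Among the sites with 3 loops were those with the starts of Tbx1, Prdm12, Dlx1 and Sp9. Others held an end of Nptx1, Alx4, Lhx5 or Fli1, or of Hoxc5, Hoxc6, Hoxc8 and Hoxc9. The starts of these genes are not in the table used, so either end was counted. Of the 13 sites, 4 held no coding start. Linked sites formed 19 groups of at least 3 loops, with 65 loops in all, 14 of them in a lens list. The 3 largest groups had 5 loops each and none in a lens list. Among them were Sp5, Gad1, Dlx1, Sp9 and the Hoxd cluster over 4230 kb of chromosome 2, and Vax2, the body of Cyp26b1 and Emx1 over 1485 kb of chromosome 6.

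In 5 places 3 sites were joined pairwise, and 2 of these places each held a Vax gene and an Emx gene beside an unrelated gene. On chromosome 6, Vax2 (chr6:83710001-83715000) met Cyp26b1 (chr6:84585001-84590000) over 875 kb with 23 contacts and a ratio of 15.5. Cyp26b1 met Emx1 (chr6:85185001-85190000) over 600 kb with 29 contacts and a ratio of 13.1, and Vax2 met Emx1 over 1480 kb with 17 contacts and a ratio of 9.33. Vax2 and Emx1 are homeobox genes of the ventral eye and the forebrain, and Cyp26b1 encodes an enzyme that degrades retinoic acid. On chromosome 19 their relatives Vax1 and Emx2 were joined over 290 kb (chr19:59170001-59175000 and chr19:59460001-59465000) with 23 contacts and a ratio of 9.63. Both were also joined to Gfra1, which encodes a GDNF receptor subunit, over 710 and 1000 kb with 20 and 18 contacts. The map of these triangles shows the TADs passed over, 3 between Vax2 and Emx1 and 2 between Gfra1 and Emx2. None of these 6 loops was in a lens list. The resemblance of the 2 loci was noticed after the values were seen.

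**Figure D3:**
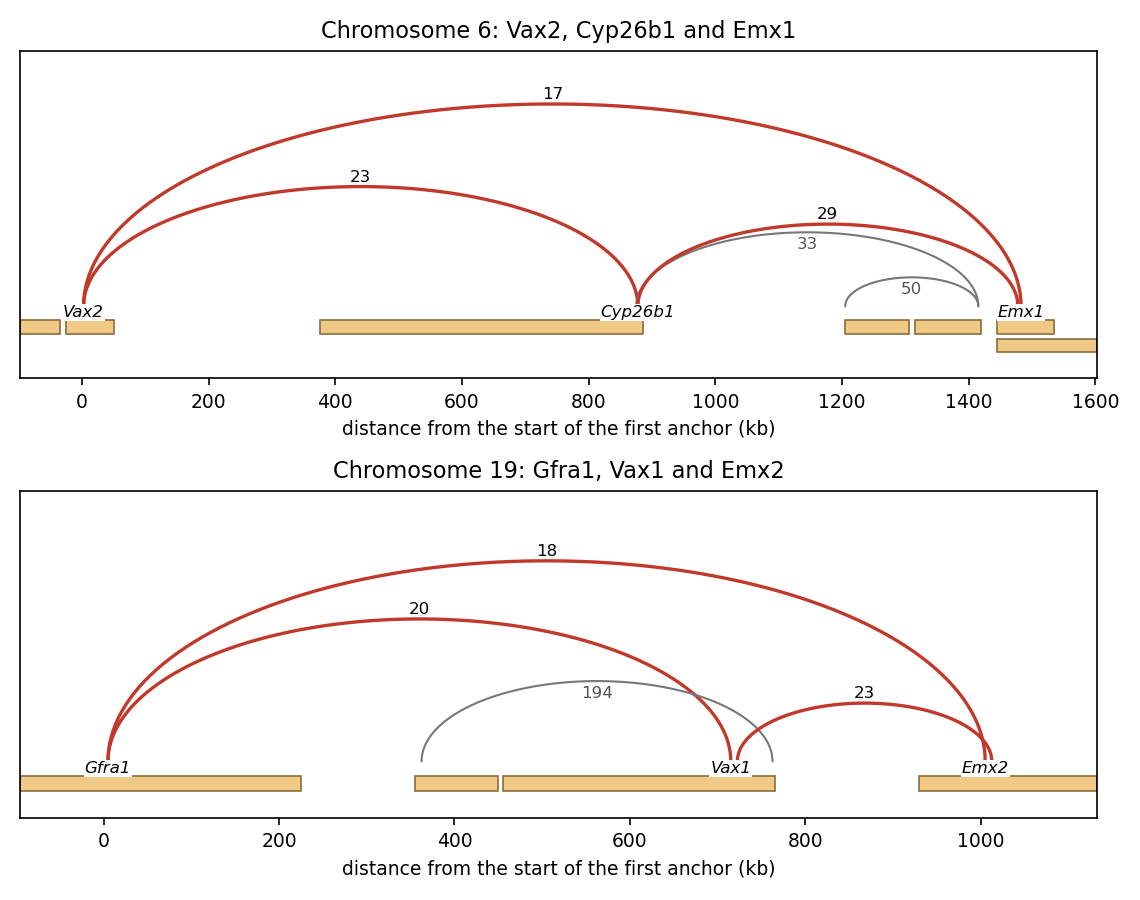
Inter-TAD loops (arcs) and ES cell TADs (boxes) at Vax2, Cyp26b1 and Emx1 and at Gfra1, Vax1 and Emx2; x is the distance from the start of the first anchor in kb, arc height follows loop length, and the number at each arc is its observed contacts in ES cells. Red arcs form the triangles, with 17 to 29 contacts on chromosome 6 and 18 to 23 on chromosome 19, and grey arcs are the other inter-TAD loops in the window.

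Most inter-TAD loops were not in the lens lists, a count in which the depth of the maps was not taken into account. A loop counted as found in a lens list when a loop there had each anchor midpoint at most 10 kb away from its own. By that measure 88 (24.9%, 20.7 to 29.7) were found in lens epithelium and 92 (26.1%, 21.8 to 30.9) in lens fibers, against 37.0% and 35.7% of all ES cell loops of at most 3 Mb. In all, 114 (32.3%, 27.6 to 37.3) were in either list (background 44.4%), 66 (18.7%) in both (background 28.4%) and 239 in neither. The epithelium and fiber shares differed by -1.13 points (-7.54 to 5.29). Of loops within 1 TAD, 43.3% were found in epithelium, 42.3% in fibers and 51.2% in either. The inter-TAD share in either list was 18.9 points lower (13.5 to 24.0) than that within 1 TAD, and it was the lower of the 2 on 16 of the 19 chromosomes that had inter-TAD loops. No inter-TAD loop was on chromosome X, which had 247 loops but only 29 TADs.

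How far this difference held depended on loop length and on the match. From 400 to 800 kb, 30.3% of inter-TAD loops and 58.9% of loops within 1 TAD were in either list, and from 800 to 3000 kb the shares were 8.33% (3.61 to 18.1) and 66.1% (53.0 to 77.1). From 200 to 400 kb the difference was -10.6 points (-19.5 to -1.27) and up to 200 kb -10.9 points (-22.8 to 2.49). When a match instead required both anchors to overlap, which is stricter for narrow anchors, the pooled difference fell to -5.24 points (-10.2 to 0.104). It was then 0.644 points (-10.5 to 14.0) up to 200 kb and -0.952 points (-9.84 to 8.31) from 200 to 400 kb, but still -20.2 (-30.2 to -8.99) and -47.1 (-60.4 to -30.6) in the 2 longer classes. Against loops within 1 TAD, the lower share thus depended on the match rule up to 400 kb and was present under both rules above that length. Against loops with 1 anchor and with no anchor in a TAD, the pooled differences were -9.65 (-14.8 to -4.18) and -9.32 points (-14.3 to -3.99). They were -3.45 (-8.53 to 1.96) and -3.5 points (-8.42 to 1.79) with overlapping anchors. By the 10 kb match they were -6.31 (-18.5 to 7.35) and 2.64 points (-9.3 to 16.1) up to 200 kb. From 200 to 400 kb they were -2.07 (-10.9 to 7.13) and -6.67 points (-15.2 to 2.25). From 400 to 800 kb they were -14.8 and -14.9 points. From 800 to 3000 kb they were -11.1 (-18.7 to -0.183) and -35.8 points (-43.4 to -24.4).

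Loops that passed over whole TADs were found in the lens lists less often than those that passed over none. Of the 232 loops with no whole TAD between their anchors, 43.5% (37.3 to 50.0) were in either lens list. With 1 TAD between it was 17.1% (10.1 to 27.6) of 70 loops, with 2 or more 1.96% (0.347 to 10.3) of 51, and with 3 or more 0 of 29, which allows a share of up to 10.3%. Among loops of like length the order was the same above 200 kb but not below. From 200 to 400 kb, 22.0% of loops with a TAD between and 50.0% of those without were found, and from 400 to 800 kb 2.86% and 45.3%, a difference of -42.5 points (-54.8 to -26.0). Up to 200 kb the difference was 12.7 points (-24.8 to 49.7). With overlapping anchors as the match, 13.2% and 40.9% were found overall. The single loop that passed over 2 TADs and was found in the lens joined Col13a1 to Fam241b over 270 kb on chromosome 10, with 97 contacts in ES cells, 156 in epithelium and 192 in fibers.

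**Figure D4:**
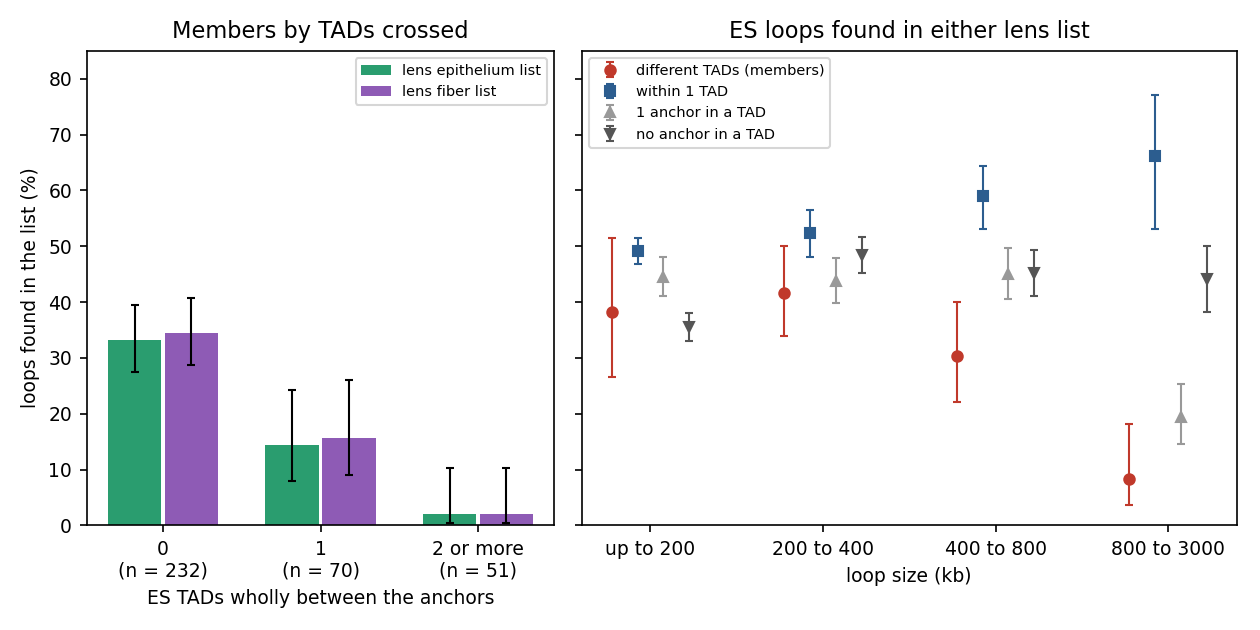
Left, share of the inter-TAD loops (y, %) found in the lens epithelium and lens fiber lists by the number of ES cell TADs wholly between the anchors (x). Right, share of ES cell loops found in either lens list by loop size (x, kb) for the 4 classes of loop position; bars are 95% Wilson intervals. The inter-TAD loops fall from 38.2% up to 200 kb to 8.33% from 800 to 3000 kb, whereas loops within 1 TAD go from 49.1% to 66.1%.

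Inter-TAD loops with developmental genes were rarely found in the lens. Of the 58 with a listed developmental gene, 4 (6.9%, 2.71 to 16.4) were in either list, against 37.3% (32.0 to 42.9) of the other 295, a difference of -30.4 points (-37.4 to -19.5). The difference was -28.8 points (-42.8 to -4.65) from 200 to 400 kb and -36.6 points (-47.4 to -15.8) from 400 to 800 kb. From 800 to 3000 kb, 0 of 20 and 5 of 40 were found, a difference of -12.5 points (-26.1 to 5.08). Under the overlap match 3 of 58 and 108 of 295 were found. Of the 4 loops found, 3 started in Hox clusters. Hoxb3, Hoxb5 and Hoxb6 were joined to the body of Skap1 over 250 kb in both lens lists, with 70 contacts in ES cells, 25 in epithelium and 57 in fibers. At the Hoxc cluster, a loop of 160 kb from Hoxc5 and Hoxc6 had 79 contacts in ES cells, 70 in epithelium and 81 in fibers, and a loop of 325 kb from Hoxc6, Hoxc8 and Hoxc9 to Gpr84 was found in epithelium only. The last was a loop of 300 kb at the neurogenic gene Neurog2, with 142 contacts in ES cells and 30 in epithelium. All 4 had lens fiber CTCF at both anchors.

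The loops that were in all 3 lists were shorter and broad in strength. The 66 had a median size of 285 kb and at most 1640 kb, and a median of 55 contacts in ES cells (19 to 313), 48 in epithelium (16 to 208) and 57.5 in fibers (22 to 283). Their median ratios to the donut were 3.87, 3.45 and 3.19. The loop with the most ES cell contacts joined Rab11fip4 (chr11:79575001-79600000) to a site without a coding gene (chr11:79900001-79925000) over 325 kb, with 313, 108 and 150 contacts in the 3 cell types and ratios of 2.72, 2.52 and 2.56. The next ran from Mcm3ap and Ybey (chr10:76450001-76475000) to Col6a1 (chr10:76725001-76750000), a collagen gene, over 275 kb with 256, 40 and 51 contacts and ratios of 3.03, 3.44 and 3.44. A loop from Bri3 to Tmem130 over 475 kb had 184, 115 and 139 contacts, 1 on chromosome 17 over 425 kb had 148, 60 and 77, and 1 with both ends inside the phosphodiesterase gene Pde4d over 500 kb had 126, 73 and 97. None of these 5 passed over a TAD, and their gaps between TADs were 15 to 60 kb. Raw contacts depend on the depth of each map, and contacts and ratio both depend on the bin. A matched lens loop can have another anchor width. The Mcm3ap loop had 25 kb anchors in ES cells, but its size was 270 kb in both lens lists. Neither contacts nor ratios can therefore be set side by side between cell types, and the part of width was not tested.

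The lens TADs at the same anchors were also read. In ES cells every one of these loops lies between TADs by the rule, so no change between cell types is read from other arrangements in the lens. A single lens epithelium TAD held both anchors of 43 inter-TAD loops (12.2%, 9.17 to 16.0, against 22.0% of all ES cell loops) and 1 lens fiber TAD held both of 26 (7.37%, 5.08 to 10.6, background 25.1%), 48 loops in either. The anchors lay in different TADs for 31 loops (8.78%, background 1.18%) in epithelium and 50 (14.2%, background 2.11%) in fibers, of which 16 did so in both. Neither list had a TAD at either anchor of 93 loops. The lens lists hold 1796 epithelium and 2641 fiber TADs against 3604 in ES cells, so fewer anchors can lie in one. Of the 43 loops enclosed by 1 epithelium TAD, 48.8% (34.6 to 63.2) were in the epithelium list, and of the 26 enclosed by 1 fiber TAD, 50.0% (32.1 to 67.9) were in the fiber list. The Hoxb loop was such a case in both lens cell types. Of the 88 loops found in epithelium 1 was an inter-TAD loop there, and of the 92 found in fibers 6 were. Seen from the lens, 1 of its 42 epithelium and 6 of its 109 fiber inter-TAD loops of at most 3 Mb matched an inter-TAD loop of ES cells. Inter-TAD loops were few in every list. They made up 4.33% of ES cell loops of at most 3 Mb, and the full lens lists hold 8005 epithelium and 7682 fiber loops. Nothing is read from these low counts.

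Developmental gene loops more often ended in different TADs of the lens as well. In epithelium this was so for 19 of the 58 (32.8%, 22.1 to 45.6) against 12 of the other 295 (4.07%, 2.34 to 6.97), and in fibers for 16 (27.6%, 17.8 to 40.2) against 34 (11.5%, 8.37 to 15.7). The developmental gene loops were also longer, with a median of 598 kb against 350 kb, and the part of length in this was not tested.

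Lens CTCF at the anchors differed between the loops found in the lens and the rest. Both anchors held a lens fiber CTCF peak in 125 inter-TAD loops (35.4%, 30.6 to 40.5), close to the 33.8% of all ES cell loops, and neither anchor in 97 (27.5%). Neither anchor held one in 21.3% of loops within 1 TAD, 21.9% of those with only 1 anchor in a TAD and 25.4% of those with no anchor in a TAD. With the shorter epithelium list of 16433 peaks, against 23868 in fibers, 52 loops (14.7%) had a peak at both anchors (background 14.3%). Of the loops in a lens list, 59.6% had fiber CTCF at both anchors and 7.02% at neither. Of those in neither lens list the shares were 23.8% and 37.2%, a difference of 35.8 points (24.9 to 45.7) for both anchors. The share with no fiber CTCF at either anchor was 21.1% (16.4 to 26.8) with no TAD between, 25.7% (16.9 to 37.0) with 1 and 58.8% (45.2 to 71.2) with 2 or more. It was 53.4% (40.8 to 65.7) of loops with a developmental gene and 22.4% (18.0 to 27.5) of the others. The loops over 2 or more TADs were also longer, with a median of 1000 kb against 325 kb with no TAD between. Developmental gene loops had a median of 598 kb against 350 kb. Over all inter-TAD loops the share with no fiber CTCF was 51.7% from 800 to 3000 kb and 18.7% to 34.5% in the shorter classes. The part of length in these contrasts was not tested. From 800 to 3000 kb, 13.3% of inter-TAD loops but 58.9% of loops within 1 TAD had fiber CTCF at both anchors, a difference of -45.6 points (-59.1 to -28.6), while the classes up to 800 kb differed by -5.06 to 5.38 points with intervals that included 0. At that greatest length the difference was smaller against loops with only 1 anchor in a TAD (26.4%, -13.0 points, -22.2 to -0.838). It was -23.9 points (-32.7 to -11.7) against the 37.3% of loops with no anchor in a TAD. Whether CTCF was bound at these anchors in ES cells was not tested.

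**Figure D5:**
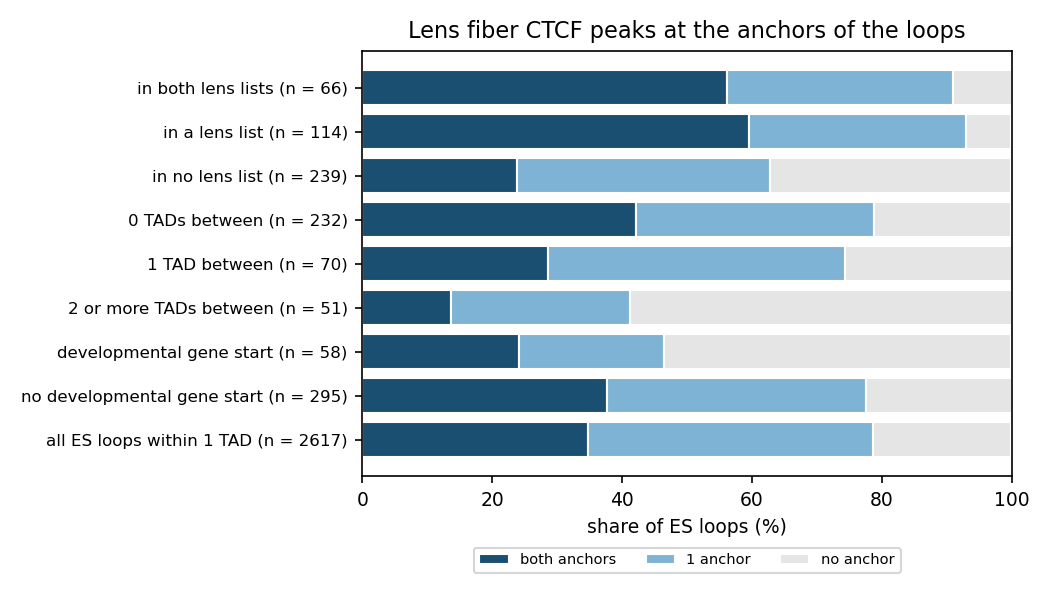
Share of ES cell loops (x, %) with a lens fiber CTCF peak at both anchors, 1 anchor or no anchor, for inter-TAD loops by lens state, by TADs between the anchors and by developmental gene, with loops within 1 TAD in the bottom row. The part with no peak is 7.02% for loops in a lens list, 37.2% for loops in neither and 58.8% for loops over 2 or more TADs. The rows differ in loop length, which was not separated here.

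Many anchors of loops missing from a lens list were still loop ends in the lens. Of the 265 inter-TAD loops not found in epithelium, both anchors overlapped anchors of some epithelium loop in 67 (25.3%, 20.4 to 30.8), 1 anchor in 111 and neither in 87 (32.8%). For loops within 1 TAD that were not found in epithelium, both anchors were in use in 11.4%, which was 13.8 points lower (8.69 to 19.6). In fibers the shares were 21.5% and 11.1%, a difference of 10.3 points (5.47 to 15.9), although against loops with only 1 anchor in a TAD the fiber difference was 2.57 points (-2.47 to 8.3). Wider anchors overlap more easily, and inter-TAD loops had wider anchors; the part of width in this was not tested. Of the 5 loops with developmental genes at both ends, none had an epithelium loop end at either anchor. In fibers, Lhx1, Sp9, Dlx1 and Insm1 each kept a loop end without that of the partner, and Hand1 and Wnt3a both were loop ends.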

How the data were processed

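Hi-C loop and TAD lists of ES cells, lens epithelium and lens fibers were used as deposited. The authors aligned reads with BWA to mm10, as the submitters' processing notes name it, built maps with Juicer from 2 merged replicates per cell type, and called loops with HiCCUPS at 5, 10 and 25 kb and TADs with Arrowhead. The deposited loop lists give observed read counts, expected contacts as a signal, and a donut FDR as q-value, per the file headers made with Juicer Tools 2.13.06. The deposited CTCF peaks, called with MACS2, carry fold enrichment, a signal value, a score, and −log10 p and q. The depth of the maps is not in the lists and was not used here. Versions other than that of Juicer Tools are not given in the sources used here.

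Classes, matches and intervals were computed with Python 3.11.15, pandas 2.3.3, numpy 2.4.6 and networkx 3.6.1, and 8 of 8 checks on 2000 simulated loops gave the known answer. An anchor was placed in a TAD by its midpoint, a gene start in an anchor by position, and a CTCF peak by an overlap of at least 1 bp. Gene starts and promoters came from RefSeq GRCm38.p6, with 17492 of 21887 coding genes matched to a listed start. The members and lists were chosen with earlier results of these data known. Named loops were the 10 with the highest ratio, those with a listed developmental gene at both anchors, the 5 strongest in both lens lists, the sites with most loops and the 3 over most TADs. A few loops that met this rule are not reported here. No columns of per-sample values were left unmapped. The alternatives tried are given in the closing section.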

Additional observations from a re-analysis of the deposited data

How the results depend on the processing

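Of the 124 alternatives to the values above, 86 stayed within the 95% interval of the value and 38 moved beyond it. For the number of loops, staying meant within 1.5 times it. Counts and shares cannot change sign, so only the epithelium and fiber differences to loops within 1 TAD could reverse. Neither did under its 13 alternatives, each taken singly. With the overlap match and 5 kb anchors together, these differences were 3.02 points (-5.75 to 13.6) and 6.11 points (-2.95 to 16.8). With TADs of at least 200 kb only, 35 loops met the rule in place of 353, with 14.3% found in lens epithelium, 14.3% in lens fibers, differences to loops within 1 TAD of -27.4 and -27.2 points, 5.71% held by 1 epithelium TAD and 0.0% by 1 fiber TAD, a gene start at both anchors in 25.7%, a whole TAD between in 8.57% and fiber CTCF at both anchors in 28.6%. By anchor width, the 85 loops of 5 kb gave 37.6% in epithelium and 44.7% in fibers, differences of -13.0 and -4.86 points, gene starts in 11.8%, a TAD between in 27.1% and CTCF in 29.4%. The 149 loops of 10 kb gave differences of -12.3 and -11.0 points. The 119 loops of 25 kb gave 17.6% in epithelium, 17.6% in fibers, an epithelium difference of -9.85 points, 7.56% held by 1 epithelium TAD, gene starts in 25.2% and CTCF in 45.4%. Matching within 25 kb gave 34.8% and 36.8% found. Matching by an overlap of at least 1 bp gave differences of -3.59 (-8.0 to 1.34) and -3.16 points (-7.52 to 1.73), whose intervals included 0. A gene start within 5 kb of the anchors was at both ends of 28.9%, and one among listed starts only, a setting chosen after seeing the data, of 10.2%. A TAD lay between in 50.2% when any overlap of anchor and TAD counted and in 28.6% with outermost TADs only. Lens fiber TADs widened by 25 kb held 11.0%, and the epithelium peak list had CTCF at both anchors of 14.7%. The overlap match by size, by TADs between and by developmental gene was also chosen after seeing the data. No paired analysis was possible because each cell type had 1 merged list, and for the same reason no replicate could be left out. Loops on few contacts in 1 merged map may be missing from another map of less depth, and this was not tested. The paper reports a larger share of contacts between chromosomes in both lens maps than in ES cells. Contacts between chromosomes do not count towards loops within a chromosome.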
